A study of Homo sapiens with 8 samples.

Results

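The genes described here are 9 complement components and complement inhibitors among the 34415 gene symbols counted in HaCaT cells: C3, CFB, C1R, C1S, CFI, CD46, CD55, CD59 and SERPING1. They were listed by symbol, and the list was selected on the measured siETV4 against siNC difference of their counts in these same libraries, so their differences are given as values and not as tests. HaCaT is an immortal line of human skin keratinocytes, used between passages 21 and 33. All 8 cultures were kept in medium with serum and antibiotics, with glucose raised from 5.5 to 35 mM for 96 h. In 4 cultures (siETV4) a small interfering RNA against the ETS family transcription factor ETV4 was transfected for 48 h, and in 4 (siNC) a negative control RNA was used for the same time. The submitters describe the cultures as independent biological replicates of the 1 cell line, and none of the 8 libraries came from cells left at 5.5 mM glucose.

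Complement is a set of secreted and membrane proteins that tag and lyse microbes. In the classical pathway the proteases C1r and C1s, bound to C1q, cleave C4 and C2. In the alternative pathway factor B joins deposited C3b and forms the enzyme that cleaves more C3. Host cells hold the cascade down with factor I, which cleaves C3b and C4b with the help of cofactors such as CD46, with CD55, which breaks up the C3-cleaving enzymes, with CD59, which blocks the membrane attack complex, and with the C1 inhibitor SERPING1. Epidermal keratinocytes are known to make C3 and factor B, and inflammatory cytokines and interferons raise both.

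Each library held between 35057643 and 41657753 counts. ETV4 stood at 2.61 ± 0.547 CPM (counts scaled to a common library size, here with TMM factors; SD, n = 4) in siETV4 and 28.2 ± 5.64 CPM (SD, n = 4) in siNC, with siNC replicate 4 the lowest control at 19.8 CPM. That library also stands apart from the other siNC libraries in base composition. Across genes, its deviation from the mean of the 8 libraries correlated with the GC content of transcripts at Spearman's rho -0.60. The other siNC libraries had 0.53 to 0.64, and siETV4 replicates 1 to 4 had -0.65, 0.21, -0.58 and 0.02. With siNC replicate 4 left out, every siNC library lay above every siETV4 library in this rho. In the uncorrected fit without that library, siRNA and base composition therefore cannot be told apart. Genes are not independent replicates, so these correlations are descriptions, and the difference of each tested member is also given without siNC replicate 4 and after correction of every library for its trends on GC content and length (hereafter, after GC correction). Keratinocyte markers were abundant (summed FPKM of KRT5, KRT14, KRT6A, KRT16, TP63, SFN, DSG3 and ITGB4 between 1700.0 and 1990.0). Of the leukocyte markers, PTPRC and TYROBP were at 0 counts in all 8 libraries. The list of 6 leukocyte markers summed to between 12.9 and 14.5 FPKM in siETV4, against 10.0 to 14.0 FPKM in siNC, nearly all of it CD68 (9.65 to 14.4 FPKM). The 4 hepatocyte markers summed to at most 1.4 FPKM in siETV4 and 2.27 FPKM in siNC, with ALB giving the highest value. The listed fibroblast markers summed to between 0.553 and 1.07 FPKM. The listed endothelial markers summed to between 3.77 and 5.28 FPKM in siETV4, against 3.31 to 4.22 FPKM in siNC, nearly all of it CDH5 (3.15 to 5.17 FPKM).

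Per gene length, C3 was the most abundant of the 9 transcripts in the control cells. In FPKM (fragments scaled by gene length and by library total, the authors' values), the siNC means were 51.0 ± 7.84 for C3, 35.9 ± 2.91 for CD59, 31.4 ± 11.4 for CD46, 12.3 ± 1.43 for CFB, 6.06 ± 1.08 for CD55, 2.54 ± 0.41 for C1R, 1.67 ± 0.249 for C1S and 1.27 ± 0.476 for CFI (SD, n = 4 each). C3 lay above 89.8% of the tested genes, CFB above 69.7% and C1S above 32.8%. Most neighbours in this order did not overlap in range. The exceptions were CD59 and CD46, where CD59 was higher in 3 of 4 siNC libraries, and C1S and CFI, where C1S was higher in 4 of 4. In the siETV4 libraries the order was the same except that C1S stood above C1R in 2 of 4.

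SERPING1, the inhibitor of C1r and C1s, was near the limit of detection in every library. The siETV4 libraries held 0, 8, 1 and 0 counts and the siNC libraries 0, 0, 0 and 1. A count of 0 allows up to 3 counts, or 0.072 to 0.0856 CPM in these libraries, for counting error only. SERPING1 did not pass the filter on low counts and no fold is given for it.

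**Figure D1:**
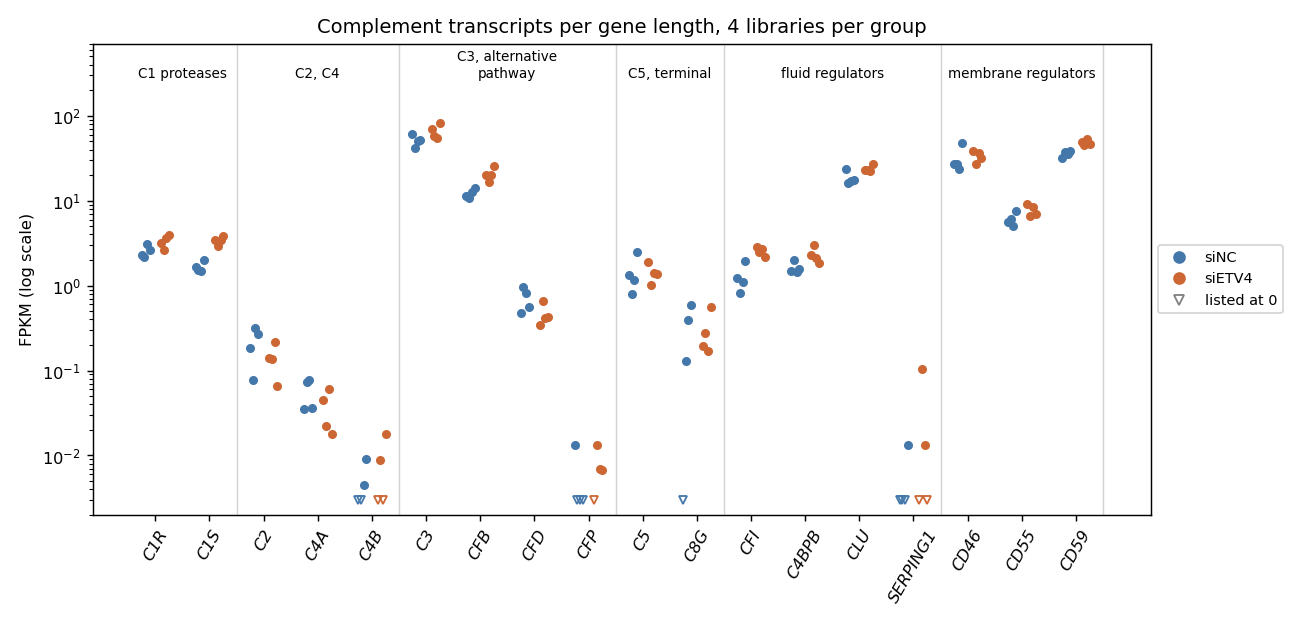
FPKM (vertical axis, log scale) of complement genes in the 4 siNC and 4 siETV4 libraries, 1 point per library, with open triangles at the foot for genes listed at 0. C3, CFB and the membrane regulators CD46, CD55 and CD59 lie above 5 FPKM in every library, while C4A, C4B, CFP and SERPING1 reach at most 0.104 FPKM.

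Many other genes of the cascade were at or near 0. Of 50 other complement genes, 15 were at 0 counts in all 8 libraries, among them C1QA, C1QB and C1QC, which encode C1q, and the terminal components C6 and C9. C4A and C4B, near-identical genes between which the authors' counting may divide reads, reached at most 17 and 4 counts. C2 stood at 0.211 ± 0.106 FPKM in siNC, and C5 at 1.45 ± 0.734 FPKM. CFD, the protease that activates factor B, had 0.705 ± 0.23 FPKM. The fluid-phase regulator CLU (clusterin, which binds terminal complexes) stood at 18.8 ± 3.43 FPKM. C1QBP, a mostly mitochondrial protein named for its binding of C1q, had the highest level of the list at 322 ± 31.2 FPKM (SD, n = 4 for each of these siNC values).

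All 8 members that passed the filter on low counts had a positive log2 fold change (siETV4 minus siNC), from 0.06 in CD46 to 0.98 in C1S, with a median of 0.36 against -0.01 over the 13572 genes tested, of which 48.4% were positive. Since the members were listed with this contrast in view, these values describe them and support nothing further. In this fit of all 8 libraries without GC correction, activating components and inhibitors lay on the same side. The median was 0.53 over C3, CFB, C1R and C1S and 0.35 over CFI, CD46, CD55 and CD59. Without siNC replicate 4 these medians were 0.55 and 0.41. After GC correction they were 0.66 and 0.23, with 4 of 4 activating components and 3 of 4 inhibitors positive. In 4 of the 8, namely CFB, C1S, CFI and CD59, no siETV4 library overlapped a siNC library, and all 4 were higher in siETV4, where 2.62% of all tested genes were higher without overlap. With all 8 libraries and no GC correction, C1S was the single member past an adjusted p of 0.05 in edgeR's quasi-likelihood test over the whole table. That mark was reached by 0.236% of tested genes.

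**Figure D2:**
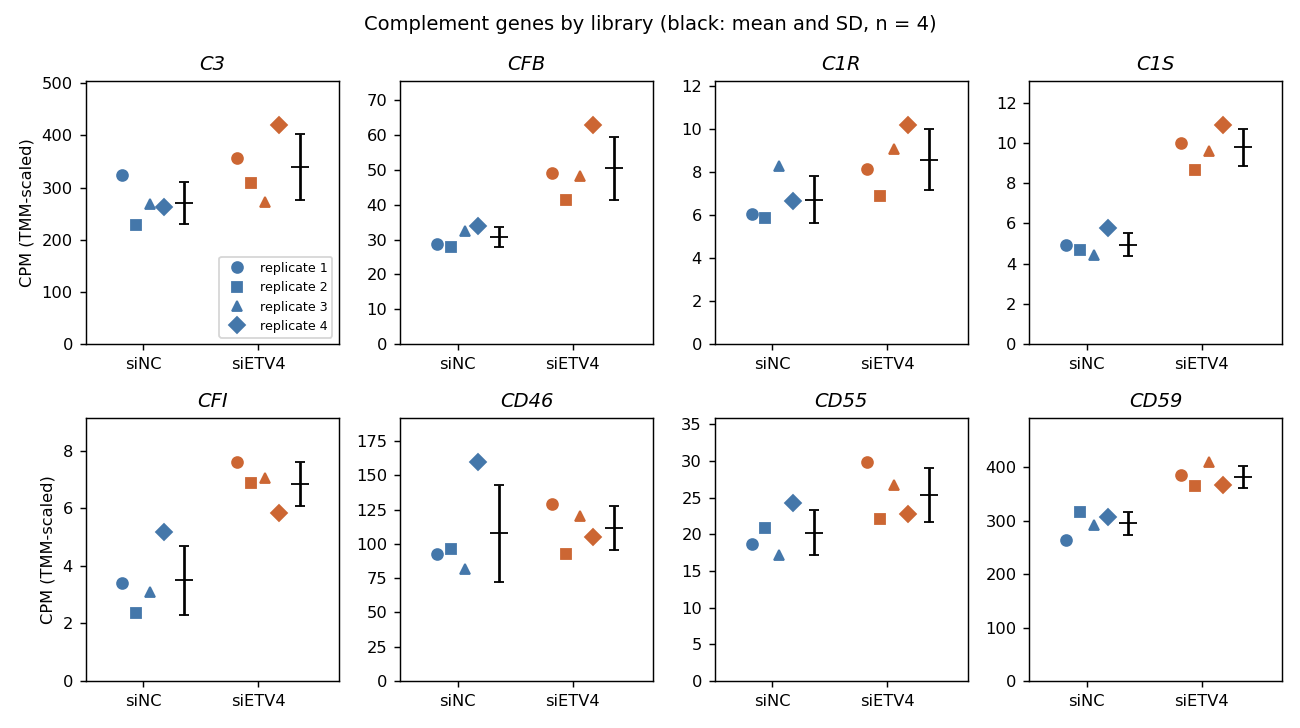
CPM (vertical axes, each from 0) of the 8 complement genes that passed the low count filter, by siRNA (horizontal axis), 1 marker shape per replicate number, with mean and SD in black. The siETV4 points of CFB, C1S, CFI and CD59 all lie above the siNC points, and the siNC replicate 4 point of CD46, at 160 CPM, lies above every other library.

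Among the activating components, the C1 proteases differed from each other. C1S, the C1 subunit that cleaves C4 and C2, stood at 9.98, 8.67, 9.58 and 10.9 CPM in siETV4 replicates 1 to 4 and at 4.93, 4.67, 4.43 and 5.79 CPM in siNC replicates 1 to 4. Every siETV4 library was above every siNC library, with a log2 fold change of 0.98 (SE 0.15). It was 1.06 (SE 0.15) without siNC replicate 4 and 0.96 (SE 0.15) after GC correction. C1S was past the whole-table threshold in all 3 of these fits, but not when siETV4 replicate 1, 3 or 4 or siNC replicate 1, 2 or 3 was left out, where its log2 fold change was 0.92 to 0.99.

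C1R, the protease that activates C1s, was at 8.15, 6.9, 9.1 and 10.2 CPM in siETV4 and at 6.07, 5.89, 8.28 and 6.66 CPM in siNC. The groups overlapped, since siNC replicate 3 was above siETV4 replicates 1 and 2. The log2 fold change was 0.35 (SE 0.17), 0.35 (SE 0.18) without siNC replicate 4 and 0.50 (SE 0.18) after GC correction. C1R and C1S lie next to each other on chromosome 12, C1S from 7060718 to 7071032 and C1R from 7080219 to 7092445 (GRCh38), with 9186 bases between them. The FPKM of C1S divided by that of C1R lay between 0.939 and 1.12 in siETV4 but between 0.477 and 0.775 in siNC, so this ratio did not overlap between the groups. These FPKM carry no GC correction. The transcripts have a GC content of 47.9% (C1S) and 55.3% (C1R), and the highest siNC ratio was that of siNC replicate 4. The part of base composition in this ratio was not tested.

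CFB encodes factor B, the catalytic subunit of the alternative pathway enzyme. Its siETV4 libraries stood at 49.1, 41.5, 48.3 and 62.9 CPM and its siNC libraries at 28.8, 27.9, 32.5 and 34.0 CPM. The groups did not overlap, and siETV4 replicate 4 was the highest. The log2 fold change was 0.71 (SE 0.14), 0.76 (SE 0.14) without siNC replicate 4 and 0.82 (SE 0.16) after GC correction. CFB passed the whole-table threshold in the last 2 fits and not with all 8 libraries uncorrected.

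C3, the protein on which the pathways converge, had 356, 309, 272 and 420 CPM in siETV4 and 324, 228, 268 and 263 CPM in siNC. The groups overlapped, as siNC replicate 1 was above siETV4 replicates 2 and 3. The log2 fold change was 0.33 (SE 0.14), 0.31 (SE 0.14) without siNC replicate 4 and 0.48 (SE 0.12) after GC correction. The ratio of CFB to C3 in FPKM, also without GC correction, lay between 0.284 and 0.374 in siETV4, above the 0.188 to 0.273 of siNC, without overlap.

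Among the inhibitors, CFI, the protease factor I, had the largest difference. It stood at 7.62, 6.87, 7.05 and 5.82 CPM in siETV4 and at 3.39, 2.35, 3.1 and 5.18 CPM in siNC. The groups did not overlap, although siNC replicate 4 came close to siETV4 replicate 4. The log2 fold change was 0.96 (SE 0.23), 1.21 (SE 0.19) without siNC replicate 4 and 0.78 (SE 0.17) after GC correction. CFI passed the whole-table threshold in the last 2 fits only.

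CD59, the membrane inhibitor of pore formation, was the member with the smallest relative spread. It had 385, 366, 411 and 367 CPM in siETV4 and 265, 316, 292 and 307 CPM in siNC, with no overlap. Its log2 fold change of 0.38 (SE 0.09) was 0.39 (SE 0.09) without siNC replicate 4, where it passed the whole-table threshold, and 0.32 (SE 0.08) after GC correction, where it did not.

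CD55, or decay-accelerating factor, stood at 29.9, 22.1, 26.7 and 22.7 CPM in siETV4 and at 18.6, 20.8, 17.2 and 24.3 CPM in siNC. Only siNC replicate 4 reached into the siETV4 range. The log2 fold change of 0.32 (SE 0.15) became 0.42 (SE 0.14) without that library, past the whole-table threshold, and 0.14 (SE 0.09) after GC correction.

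CD46, the membrane cofactor of factor I, had 129, 92.7, 120 and 105 CPM in siETV4 and 92.6, 96.2, 81.6 and 160 CPM in siNC. The highest of all 8 libraries was siNC replicate 4, and the lowest siETV4 library lay within the range of the other controls. The log2 fold change was 0.06 (SE 0.19) with all libraries, 0.31 (SE 0.12) without siNC replicate 4 and -0.14 (SE 0.09) after GC correction, so its sign depended on the fit, and it passed the whole-table threshold in none of these. CD46 and CD55 lie on chromosome 1, 391071 bases apart, within the cluster of complement regulators.

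**Figure D3:**
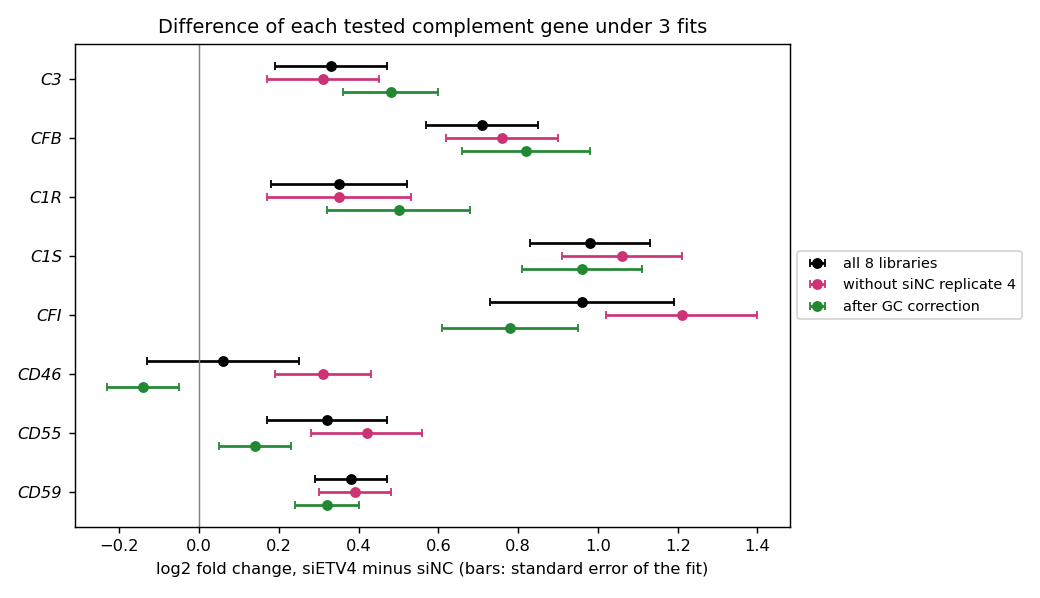
Log2 fold change (horizontal axis, siETV4 minus siNC) of the 8 tested complement genes with the standard error of each fit as bars, for all 8 libraries, without siNC replicate 4, and after GC correction. C1S stays between 0.96 and 1.06, while CD46 runs from -0.14 to 0.31.

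Without siNC replicate 4, 5 members (CFB, C1S, CFI, CD55 and CD59) passed the whole-table threshold, where 16.9% of all tested genes did. After GC correction, 3 (CFB, C1S and CFI) passed, where 1.31% of all tested genes did. With both changes 6 passed, the same 5 less CD55 plus C3 and C1R, where 7.24% of all tested genes did. DESeq2, with all 8 libraries, called 4 (CFB, C1S, CFI and CD59), where 1.12% of its tested genes were called.

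In FPKM, which carry no GC correction, the balance of activating to inhibiting transcripts did not separate the groups. The summed FPKM of C3, CFB, C1R and C1S divided by that of CFI, CD46, CD55 and CD59 was 0.965, 0.996, 0.807 and 1.33 in siETV4 and 1.16, 0.787, 1.04 and 0.726 in siNC. The ranges overlapped, with means of 1.02 ± 0.219 and 0.927 ± 0.205 (SD, n = 4 each). C3 made up most of the first sum, and CD59 and CD46 most of the second. The GC content of C3 is 56.5% and that of CD46 37.7%, and the lowest ratio was that of siNC replicate 4. The part of base composition in this ratio was not tested, and the ratio was not computed after GC correction. The ratio of C3 to CD59 spanned 1.02 to 1.77 in siETV4 against 1.11 to 1.89 in siNC. That of CFB to CFI spanned 6.68 to 11.9 against 7.24 to 13.1. In bulk RNA a change in RNA per cell and a change in the share of cells that express a gene cannot be told apart.

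Within the groups the members varied in different company. As a description over the 8 libraries, after the group means were subtracted, CD46 and CD55 deviated together (Pearson's r 0.91), as did CFB and C1R (0.82), C1S and CD46 (0.78), CFI and CD46 (0.76) and CFB and C1S (0.72). C3 and CD59 deviated in opposite directions (-0.79). These values share the depth and the base composition of the same libraries. CD46, CFI and CD55 had the lowest GC content of the tested members (37.7%, 40.7% and 41.4% of the longest transcript, against a median of 48.4% over tested genes) and the highest deviations of siNC replicate 4 from its group mean (0.62, 0.62 and 0.28 on the log2 scale). C3, C1R and CFB, at 56.5%, 55.3% and 53.2%, deviated by -0.03, -0.00 and 0.15 there. C1S and CD59, at 47.9% and 45.5%, deviated by 0.23 and 0.06, so the order did not follow GC content throughout. The part of base composition in the difference between siRNAs was not tested beyond the GC-corrected fit.

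**Figure D4:**
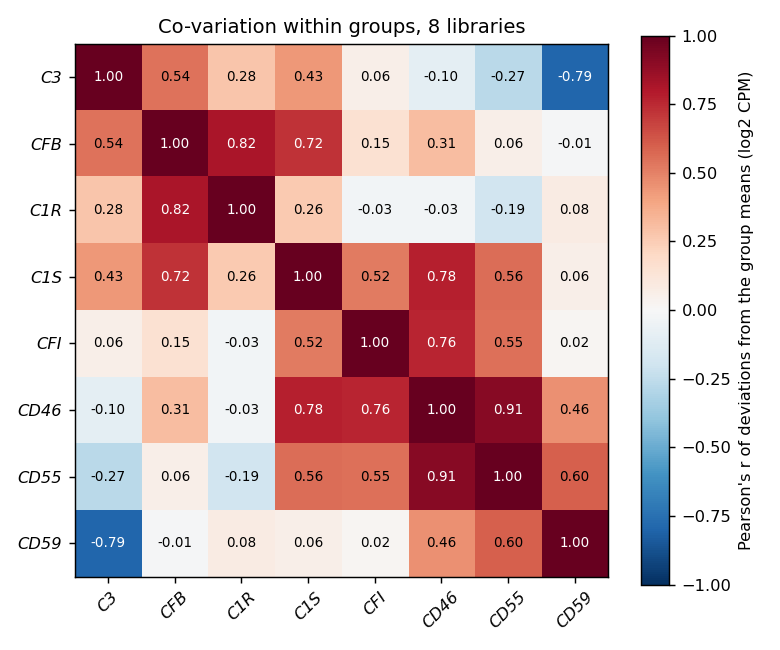
Pearson's r between members (both axes) of the deviations of log2 CPM from the group means over 8 libraries, from -1 (blue) to 1 (red). CD46 and CD55 (0.91) and CFB and C1R (0.82) are among the closest pairs, and C3 and CD59 (-0.79) the most opposed.

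The genes outside the list whose log2 CPM followed a member most closely over the 8 libraries, of 10979 genes at a mean of 1 log2 CPM or more, were taken with Pearson's r as the measure of likeness. The closest to CFB were GPNMB (0.985) and CD86 (0.963), and to C1S they were CDKN2B (0.983) and CD86 (0.976). CFI was followed by SAA2 and MMP13 (0.985 each), C3 by CYP26B1 (0.94), CD59 by DKC1 (0.986) and CD46 by MAP3K20 (0.997). Group means were not subtracted for these values. They therefore hold the difference between siRNAs on which the members were selected, and the base composition of the libraries.

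The other complement genes gave no call. Of the 50, 11 passed the low count filter and 0 passed an adjusted p of 0.05 in edgeR or in DESeq2, with 3 at an unadjusted p under 0.05 in edgeR, all higher in siETV4, where 12.6% of all tested genes had such a p. Their median log2 fold change was -0.05. Among the 3 were 2 fluid-phase regulators. C4BPB, a chain of the C4b-binding protein, had a log2 fold change of 0.47 (SE 0.20, edgeR adjusted p 0.38) and CLU of 0.31 (SE 0.13, edgeR adjusted p 0.388). C4BPA, which encodes the other chain of that protein, was at 0 counts in 7 libraries and reached at most 4 counts. CFD stood at -0.65 (SE 0.39, edgeR adjusted p 0.496). Without siNC replicate 4 these were 0.43 for C4BPB, 0.26 for CLU and -0.77 for CFD, and after GC correction 0.38, 0.39 and -0.51, with no edgeR adjusted p under 0.05.

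All 28 listed genes of pathways known to induce complement in epithelia (hereafter, inducers) passed the low count filter. They encode cytokines, receptors, kinases, an adaptor and transcription factors, and also NFKBIA, an inhibitor of NF-kB. None passed an adjusted p of 0.05 in edgeR (0 of 28), 8 had an unadjusted p under 0.05, 6 of them higher and 2 lower, beside 12.6% of all tested genes (787 higher and 921 lower), and 1 passed in DESeq2. The median log2 fold change was 0.07. IRF9, a subunit of the interferon-activated factor ISGF3 that was singled out after its values were seen, was that 1 gene, with 11.9 FPKM or more in every siETV4 library and 8.86 FPKM or less in every siNC library. Its groups did not overlap (log2 fold change 0.60, SE 0.12, edgeR adjusted p 0.103), and it passed after GC correction (0.75, edgeR adjusted p 0.00701) and without siNC replicate 4 (0.58, edgeR adjusted p 0.0149). IRF1, an interferon-gamma induced activator, had a log2 fold change of -0.25 (SE 0.08, edgeR adjusted p 0.262), with 47.7 to 51.1 FPKM in siETV4 below 55.7 to 58.8 FPKM in siNC. It was -0.29 without siNC replicate 4, where IRF1 passed (edgeR adjusted p 0.0263), and -0.14 after GC correction, where it did not (edgeR adjusted p 0.332). The TNF receptor gene TNFRSF1A had one of -0.17 (SE 0.09, edgeR adjusted p 0.46), which was -0.23 without siNC replicate 4 (edgeR adjusted p 0.0694) and -0.01 after GC correction (edgeR adjusted p 0.977). Without siNC replicate 4, 7 of the 28 passed, 5 higher and 2 lower, in a fit that called 16.9% of all tested genes, 1654 higher and 673 lower. After GC correction 21 of the 28 had a positive log2 fold change, beside 6859 of 12470 tested genes. In that fit 11 had an unadjusted edgeR p under 0.05, 9 higher and 2 lower, beside 1840 tested genes, 1084 higher and 756 lower.

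Promoter sequences show which known recognition letters lie near the start of members that differed without overlap and of CD46, which did not. RefSeq windows (GRCh38.p14) from 250 bases before to 50 after the gene start were at hand for 6 of the 9 members: CFB, C1R, CFI, CD46, CD55 and CD59. Both strands were searched for the PEA3 and ETS letters AGGAAG and CCGGAAG, the interferon-gamma activated site (GAS) letters TTCNNNGAA, the C/EBP letters TTGCNNAA, and the consensus of the interferon-stimulated response element and of NF-kB. Capitals mark every match in the windows below, which run 5′ to 3′ along the gene, for CFB (chr6:31945845-31946144, plus strand), CFI (chr4:109801950-109802249, minus strand), CD59 (chr11:33736430-33736729, minus strand) and CD46 (chr1:207751788-207752087, plus strand).
CFB: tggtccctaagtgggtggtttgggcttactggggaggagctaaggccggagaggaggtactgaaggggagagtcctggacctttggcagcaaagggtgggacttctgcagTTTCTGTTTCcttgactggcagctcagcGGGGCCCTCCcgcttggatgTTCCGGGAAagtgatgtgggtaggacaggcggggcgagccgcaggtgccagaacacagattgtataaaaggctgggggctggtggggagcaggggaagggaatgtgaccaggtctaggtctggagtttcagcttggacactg
CFI: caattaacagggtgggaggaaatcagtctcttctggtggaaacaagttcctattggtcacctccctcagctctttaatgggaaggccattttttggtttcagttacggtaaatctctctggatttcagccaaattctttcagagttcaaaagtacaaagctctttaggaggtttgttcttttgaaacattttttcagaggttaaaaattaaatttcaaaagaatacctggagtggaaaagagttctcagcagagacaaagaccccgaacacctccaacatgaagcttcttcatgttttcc
CD59: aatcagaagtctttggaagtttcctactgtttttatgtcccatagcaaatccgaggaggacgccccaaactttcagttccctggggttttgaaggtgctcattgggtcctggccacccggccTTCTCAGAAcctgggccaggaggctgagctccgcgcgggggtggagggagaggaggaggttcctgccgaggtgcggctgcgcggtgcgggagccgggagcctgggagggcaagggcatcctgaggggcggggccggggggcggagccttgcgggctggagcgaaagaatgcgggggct
CD46: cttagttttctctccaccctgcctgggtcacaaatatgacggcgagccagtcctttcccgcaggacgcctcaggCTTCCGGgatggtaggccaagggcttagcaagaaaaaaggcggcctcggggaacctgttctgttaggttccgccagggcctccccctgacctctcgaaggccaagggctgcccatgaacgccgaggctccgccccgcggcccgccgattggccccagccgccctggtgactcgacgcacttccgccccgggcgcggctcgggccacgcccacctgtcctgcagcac

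The CFB window held an interferon-stimulated response element on the minus strand starting 140 bases before the gene start, an NF-kB match at 112 bases and a GAS match at 92 bases. Of 27305 promoters of the same length, 3.65% held the first, 10.8% the NF-kB consensus and 7.88% the GAS letters. CD59 held a GAS match 128 bases before its start, and the C1R window a C/EBP match at 106 bases, as did 10.6% of promoters. CD46 held CCGGAAG, on the minus strand, 176 bases before its start, as did 10.7% of promoters. AGGAAG was in none of the 6 windows and in 33.7% of all promoters. The CFI window held none of the letters searched. A match is a description of letters and not a site of binding.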

How the data were processed

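RNA from 8 HaCaT cultures was sequenced, and the titles of the samples gave each one's group and replicate number. The authors deposited raw read counts per gene symbol and FPKM values. Per the submitters' processing notes, hg38 was the build and R 3.2.0 was used; strand setting, annotation, counter and aligner are not given in the sources here. The deposited FPKM equal the counts scaled by library total and 1 length per gene (20584 of 20585 genes above 0, relative tolerance 1e-06). The counts were fitted with edgeR 4.0.16 (R 4.3.3): filterByExpr (minimum count 10) left 13572 genes, with TMM factors, the siRNA as the only term, the quasi-likelihood test and Benjamini-Hochberg adjustment over all genes tested, called at 0.05. Standard errors are the log2 fold change over the root of its F statistic. At the mean depth 1 CPM is 40.1 counts. For GC content (longest GENCODE v29 transcript) and length, offsets came from splines with 5 degrees of freedom per library over 12470 genes (91.9% of those tested, and all 8 tested members).

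The members, the lists of 50 and 28 genes, the markers and the tests were chosen with earlier results of these data known. Named genes are the members, ETV4, called genes of each list and its 6 most abundant, and for each member the 2 genes most like it; not all are named, and results for 2 genes of these lists are not reported here. Alternatives were RLE factors, library size alone, other filters, DESeq2 1.42.0, limma-voom and limma-trend on FPKM (limma 3.58.1), the replicate block, the offsets and each library left out. Library pairs correlated at 0.973 to 0.987 (log2 CPM), and no pair agreed within sampling noise (chi-square per degree of freedom at least 10.0). The edgeR and DESeq2 tests were run on simulated counts without a trend on base composition, so that check does not cover such trends.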

Additional observations from a re-analysis of the deposited data

Results flagged for a closer look

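In 20 groups of 4 libraries (the 9 members and CLU, in each siRNA group), 3 values stood apart from the other libraries of their group by more than Dixon's 95% limit, which chance alone passes in about 1 group in 20. SERPING1 was at 0.197 CPM (8 counts) in siETV4 replicate 2, against 0 to 0.0241 CPM in the other siETV4 libraries, and at 0.0242 CPM (1 count) in siNC replicate 4, against 0 in the others. With the other 3 libraries at 0 any count passes the limit, so the stated chance rate does not hold for counts as low as those of SERPING1. CLU was at 66.6 CPM in siNC replicate 1, against 46.6 to 48.8 CPM in the other siNC libraries.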

How the results depend on the processing

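The counts of called genes depended on the libraries and on the treatment of base composition, and the cause was not tested. Among all genes tested, 32 were called, against 54 without a filter, 164 by DESeq2, 163 with the GC content and length offsets, 912 with these offsets and without siNC replicate 4, 59 by limma-trend on FPKM with a pseudocount of 1 or 0.1 and a mean of at least 0.5, and 9 to 2327 when 1 library was left out, the highest without siNC replicate 4. With library size alone 16 of 26 calls were higher, against 16 of 32. Members called numbered 1, against 2 without a filter, 4 by DESeq2, 3 with the offsets, 6 with the offsets and without siNC replicate 4, 0 on FPKM without a filter, and 0 to 5 when 1 library was left out. Of the other complement genes 0 were called, against 1 without siNC replicate 4, with or without the offsets, and 0 to 1 over the left-out libraries. Of the inducers 0 were called, against 1 (IRF9) by DESeq2, with the offsets and in the 3 FPKM fits, 6 with the offsets and without siNC replicate 4, and 0 to 7 over the left-out libraries. TNFRSF1A changed sign, to 0.04, with the offsets and without siNC replicate 4.

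The replicate numbers are not stated to mark a shared batch, and deviations of same-numbered libraries correlated at -0.09, 0.30, -0.14 and -0.19. With the replicate block 4 genes and 0 members were called, and with the block and the offsets 87 genes, 3 members (C3, CFB and C1S) and 1 inducer.

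Over 21 alternatives, the log2 fold change of C3, CFB, C1R, C1S, CFI, CD55 and CD59 stayed positive, from 0.14 (CD55, with the offsets) to 1.21 (CFI, without siNC replicate 4), and CD46 ran from -0.14 to 0.31. SERPING1, with 10 counts over all 8 libraries, is at the limit of detection.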
